A study of Mus musculus with 14 samples.

Results

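The genes described here encode immunoglobulin heavy chains, the joining chain, the epithelial receptor that carries polymeric antibody, and proteins of B cells and plasma cells. They were taken as every probeset whose single platform gene symbol is Pigr, Jchain, Ighm, Igha, Cd79a, Cd79b, Mzb1 or Pou2af1. That rule gave 20 of the 22626 probesets that are not Affymetrix controls, and they stand for 7 of the 8 genes, since no single-symbol probeset carried the name Mzb1. Ighm has 11 probesets, Igha 3, Pigr 2 and the other 4 genes 1 each. The genes were picked with the difference between the groups known, so their group differences are given as a description, without a test.

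Total RNA came from tumours of mice on a mixed 129 SvJ/C57Bl6 background, 7 arrays labelled control and 7 labelled both Hif2alpha deficient and Hif 2alpha knockdown, called deficient here. Hif2alpha, the product of Epas1, is a transcription factor that is stabilised when oxygen is low. The organ, the age of the mice, the oncogenic driver, the part of Epas1 that was lost and any Cre or knockdown construct are not given in the sources used here. Arrays are named by group and replicate number. Values are the authors' GCRMA levels on the log2 scale, in which 1 unit is a doubling, and readings under 4 lie near the background that GCRMA sets.

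Immunoglobulin A is the main antibody of mucosal surfaces. Plasma cells below an epithelium make it and link its units with the joining chain into polymers, and the polymeric immunoglobulin receptor on the basal side of epithelial cells takes the polymers up and carries them to the lumen. Polymeric IgM, whose heavy chain is encoded by Ighm, uses the same route. On B cells the receptor is a membrane immunoglobulin held by the CD79A and CD79B signalling subunits, while plasma cells lose that receptor and secrete antibody in large amounts. In bulk tumour RNA, fewer cells of a type and less RNA per cell cannot be told apart.

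Promoter windows from RefSeq (build GRCm38.p6, 250 bases before to 50 bases after the start) matched 4 of the 8 genes: Pigr, Jchain, Cd79a and Pou2af1. The windows of the receptor and of the joining chain are printed because these genes stand at the epithelial and the plasma cell end of the transport route. That of Pigr lies at chr1:130826434-130826733 on the + strand and that of Jchain at chr5:88527848-88528147 on the - strand, both written 5′ to 3′ in the direction of the gene. Capitals mark matches to the motifs searched.
Pigr: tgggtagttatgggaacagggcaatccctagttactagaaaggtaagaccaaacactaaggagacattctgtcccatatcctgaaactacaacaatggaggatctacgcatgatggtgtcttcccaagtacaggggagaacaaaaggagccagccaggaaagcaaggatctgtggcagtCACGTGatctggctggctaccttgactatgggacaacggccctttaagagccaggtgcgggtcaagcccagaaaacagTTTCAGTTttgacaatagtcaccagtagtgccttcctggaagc
Jchain: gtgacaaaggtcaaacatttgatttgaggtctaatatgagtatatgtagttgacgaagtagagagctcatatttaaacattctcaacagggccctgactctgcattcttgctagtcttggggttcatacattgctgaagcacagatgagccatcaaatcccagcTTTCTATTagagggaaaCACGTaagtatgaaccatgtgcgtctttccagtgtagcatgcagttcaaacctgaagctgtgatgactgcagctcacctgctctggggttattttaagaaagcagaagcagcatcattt
The motifs, searched on both strands, were the hypoxia response element cores ACGTG and GCGTG, the E-box CACGTG, the octamer ATGCAAAT read by OCT factors with the coactivator that Pou2af1 encodes, and the interferon regulatory factor core AANNGAAA. The Pigr window held CACGTG 71 bases upstream of the start, and this palindrome contains ACGTG on both strands, so 1 stretch gave both matches. It also held the interferon regulatory factor core on the reverse strand, beginning at base 8 after the start. The Jchain window held ACGTG on the reverse strand 69 bases upstream and the interferon regulatory factor core on the reverse strand 86 bases upstream. Among the other windows, Cd79a held GCGTG on the reverse strand 193 bases upstream, and Pou2af1 held ACGTG 59 bases upstream and GCGTG on the reverse strand at base 27. The octamer was found in 0 of the 4 windows. Over 32851 promoter windows of the same length, ACGTG occurred in 19.6%, GCGTG in 32.4%, CACGTG in 7.15%, AANNGAAA in 23.9% and ATGCAAAT in 1.74%. A match describes the letters only.

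Some facts of the whole series bear on every value. The Epas1 probeset had medians of 6.13 in controls and 5.75 in the deficient group, which differed in their means by -0.19 (SE 0.30, limma adjusted p = 0.807, and -0.39 to -0.06 with single arrays left out). Since the lost part of the gene is not given, that probeset checks nothing. The array descriptions open with digits whose leading part was separated by hand from a last digit, giving 2 leading numbers among controls and 4 among deficient arrays. Deficient 2 alone carries its number, and each other number covers several arrays. Whether these numbers mark an animal is not stated, and every value by leading number rests on that reading of the labels. Nothing else says which arrays are separate animals beyond the design's 7 per group, and p-values measure the spread between these arrays. The second numbers of the descriptions are all smaller in deficient than in control arrays, so an effect of whatever order they mark and of the group cannot be told apart. Medians of the control arrays were 5.19 to 5.30 and those of the deficient arrays 5.13 to 5.21. The 3′ minus 5′ signal of the control transcripts, a measure of RNA quality, was 2.52 to 3.52 and 2.53 to 3.08. Deficient 3 correlated least with the other arrays, with a median r of 0.905.

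Of the 20 member probesets, 16 were above 4 in at least 7 of the 14 arrays and entered the fit. The other 4 were the single Cd79a probeset and 3 of Ighm that stayed at the floor on all arrays. In the limma fit over 12701 probesets, 0 of the 16 passed an adjusted p under 0.05, where 0.0394% of all tested probesets did, and 8 had an unadjusted p under 0.05, where 14.7% of all did. In the deficient group 15 read lower and 1 higher, and 12 differed by more than 1 log2 unit downward, where 47.4% and 2.54% of all tested probesets did. The groups did not overlap for 3, all of Igha, where 0.173% of all tested probesets lay wholly lower in deficient arrays. Because the members were chosen on this contrast, nothing is read from these counts.

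The receptor had the widest difference among the members. Pigr encodes the polymeric immunoglobulin receptor, and its brighter probeset (1455490_at) read 6.90 at the lowest, 8.89 at the median and 10.17 at the highest in controls, against 2.31, 5.40 and 8.30 in deficient tumours. Of the 7 deficient arrays 5 lay below the lowest control, while deficient 1 at 8.30 and deficient 6 at 7.37 lay within the control range. The means were 8.60 ± 1.15 and 5.70 ± 1.91 (SD, n = 7 each), a difference of -2.90 (SE 0.77), or 7.45-fold. Deficient 3 read at the background, so the size of this difference depends in part on the floor.

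The second Pigr probeset (1450060_at) ran from 5.17 through a median of 7.16 to 9.65 in controls and from 3.46 through 4.56 to 5.65 in deficient tumours. Again 5 deficient arrays lay below the lowest control, and 3 of the 7 were under 4. Its difference was -2.56 (SE 0.62, 5.88-fold). The Pigr probesets varied together over the 14 arrays (r = 0.902, and 0.798 after each group's mean was taken off), which share their libraries.

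The Pigr level also differed within the control group. Controls 1 and 4, which share a leading number, read 7.21 and 6.90 in 1455490_at, and the other 5 controls read 8.76 to 10.17. When arrays were averaged by leading number, the 2 control numbers stood at 7.05 and 9.22 and the 4 deficient numbers at 4.84 to 7.27, so the ranges overlapped. The difference between those means was -2.51. Leaving out single arrays gave differences from -3.33 to -2.33.

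**Figure D1:**
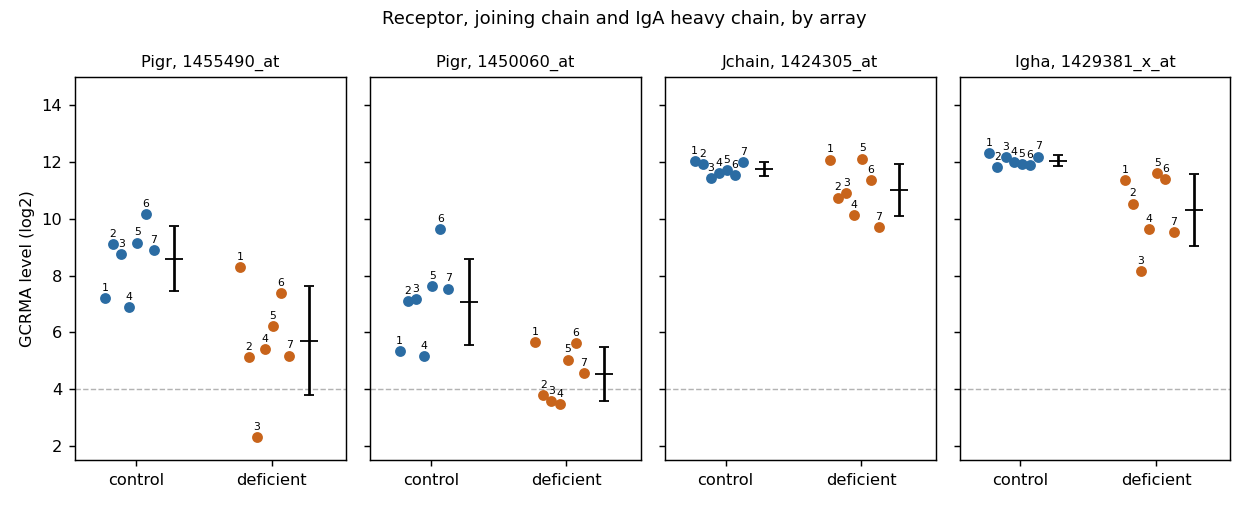
GCRMA levels (log2, vertical axis) of both Pigr probesets, Jchain and 1 Igha probeset on the 7 control (blue) and 7 deficient (orange) arrays. Points carry the replicate number, black bars are the mean ± SD, and the dashed line marks 4. Igha separates without overlap (11.84 to 12.33 against 8.16 to 11.61), while Pigr and Jchain overlap.

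Igha, which encodes the heavy chain constant region of IgA, was among the brightest readings of the set and had the narrowest control group among the tested members. Probeset 1425763_x_at read 13.54, 13.62 and 13.93 (lowest, median and highest) in controls and 10.65, 12.60 and 13.38 in deficient tumours. All 7 deficient arrays lay below the lowest control. The means were 13.68 ± 0.14 and 12.40 ± 1.00 (SD, n = 7 each), a difference of -1.28 (SE 0.35). Probeset 1421653_a_at differed by -1.24 (SE 0.36) and 1429381_x_at by -1.74 (SE 0.45), with means of 12.06 ± 0.18 and 10.32 ± 1.27. The dimmest probeset thus had the widest difference. In controls the other probesets read close to the brightest genes of these arrays, such as the alveolar type 2 gene Sftpc, which reached 13.92 in controls. Whether signal that high is compressed, narrowing the control spread and the difference, was not tested.

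These 3 Igha probesets are near copies of each other's reading, with r from 0.996 to 0.998 over the 14 arrays. They are therefore 1 measurement and not 3. The spread of the deficient group was 6.95 to 10.6 times that of the controls. It was set by deficient 3 at the low end, at 8.16 in 1429381_x_at, and by deficient 5 at the high end, at 11.61. Averaged by leading number the groups did not overlap, with 12.01 and 12.17 for the control numbers and 9.58 to 11.49 for the deficient numbers in that probeset. So few averages separate easily, and no share over all tested probesets is given beside this, so nothing is read from it. Leaving out deficient 3 and 6 together, which was decided once the data had been seen, the difference was -1.52.

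Jchain encodes the joining chain that makes IgA and IgM polymeric and lets them bind the receptor. It read 11.44, 11.73 and 12.04 in controls and 9.70, 10.90 and 12.13 in deficient tumours. Deficient 1 at 12.09 and deficient 5 at 12.13 were above every control, and the other 5 deficient arrays were below every control. The means were 11.76 ± 0.23 and 11.01 ± 0.92 (SD, n = 7 each), and the difference was -0.75 (SE 0.33). Deficient 1 and 5 share a leading number. Of the variance of Jchain within groups, 90.3% lay between leading numbers, where the median over all tested probesets was 50.5%. It was 73.9% to 80.2% in the 5 Ighm probesets that vary together. For Pigr it was 45.8% in 1455490_at and 61.7% in 1450060_at, and for Igha 45.2% to 47.5%.

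Ighm, the heavy chain of IgM, gave readings that disagreed with each other. Among its 8 tested probesets, 5 varied together almost exactly (r = 0.991 to 0.998 over the 14 arrays) and the other 3 did so less closely (r = 0.525 to 0.970). Between the sets r was 0.188 to 0.477. The sets were formed from these values and have no test.

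The mean of the 5 joint probesets was near the background on some arrays and among the brighter readings on others. It ran from 3.56 through a median of 10.52 to 12.88 in controls and from 3.35 through 8.45 to 12.16 in deficient tumours. Control 1 (3.56), control 4 (5.86) and deficient 2, 3 and 7 (3.35, 3.35 and 3.59) were low, and the remaining 9 arrays read 8.45 or more. Low arrays occurred in both groups, and the groups overlapped. With each group's mean taken off, these probesets followed Pigr 1455490_at at r = 0.753 to 0.768 over the 14 arrays, which share their libraries. For the other Pigr probeset, 1450060_at, r was 0.632 to 0.668. The brightest of these probesets, 1425247_a_at, read 10.61 ± 3.44 and 8.44 ± 4.26 (SD, n = 7 each), and its difference of -2.17 was close to its standard error of 1.88 and was -1.36 without deficient 2.

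The mean of the other 3 probesets read 6.06, 9.44 and 11.19 in controls and 6.29, 7.61 and 11.42 in deficient tumours. Deficient 3, which was near the background in the joint probesets, had the highest mean here. Its readings were 12.80 in 1427351_s_at and 10.26 in 1427329_a_at, where the next deficient arrays read 7.73 and 5.01. The widest difference of this set was that of 1425385_a_at, at 9.92 to 13.86 in controls and 8.40 to 11.50 in deficient tumours. Its means were 12.33 ± 1.23 and 10.47 ± 1.01 (SD, n = 7 each), a difference of -1.85 (SE 0.55). Averaged by leading number this probeset did not overlap between groups (11.37 and 12.71 against 8.40 to 10.97), although the single arrays did. So few averages separate easily, and no share over all tested probesets is given beside it, so nothing is read from this.

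**Figure D2:**
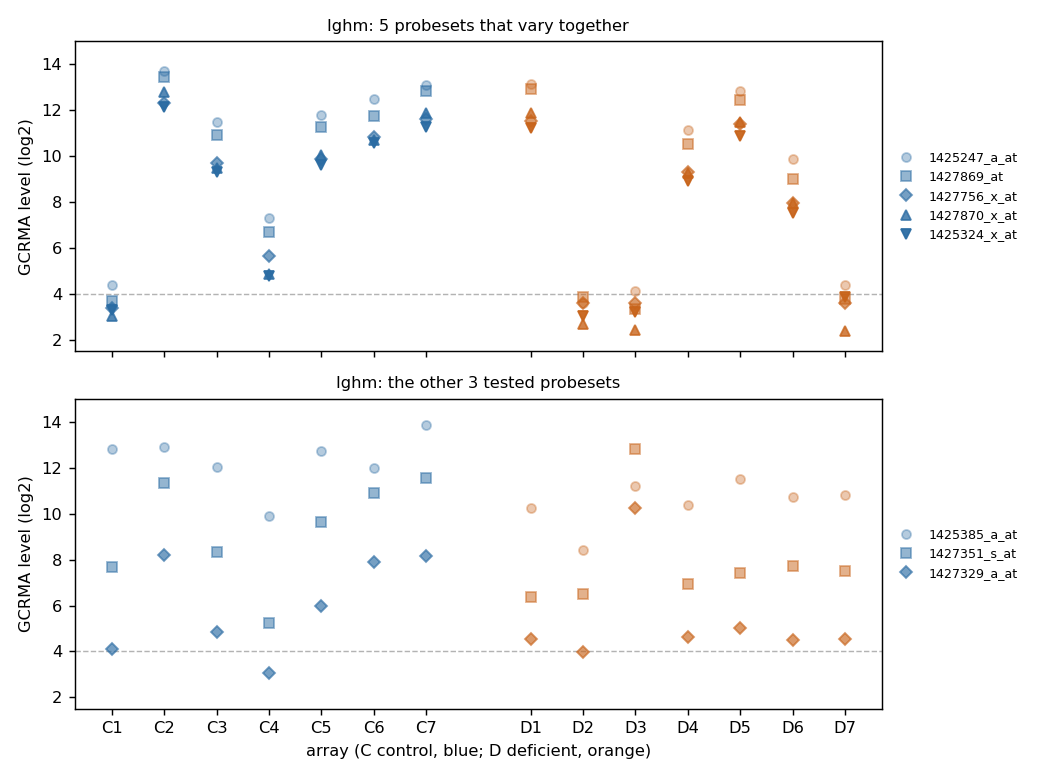
GCRMA levels (log2, vertical axis) of the 8 tested Ighm probesets on each array (horizontal axis, C1 to C7 control in blue, D1 to D7 deficient in orange), 1 marker shape per probeset within a panel. In the upper panel 5 probesets move together and C1, C4, D2, D3 and D7 are low. In the lower panel D3 holds the highest readings of 2 of the 3 probesets.

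Other immunoglobulin genes were measured by 43 probesets annotated to heavy, kappa or lambda genes and not among the members. These chains are made by the same B-lineage cells as Ighm and Igha, since every antibody pairs a heavy with a light chain. Of these probesets 15 were tested, 13 kappa and 2 lambda, and 0 of the 9 heavy chain probesets passed the filter. All 15, which are light chain probesets, read lower in deficient tumours, with a median difference of -1.53 against 0.02 over all tested probesets. Of the untested heavy chain probesets, Ighg3 1427503_at and Ighv14-2 1455530_at were each above 4 in 5 arrays. Their means were higher in deficient than in control tumours (4.41 against 3.55, and 4.40 against 3.80). The other heavy chain probesets stayed under 4 on all arrays. An unadjusted p under 0.05 was reached by 14 of them, against 6.57% of all tested probesets in that direction, and an adjusted p under 0.05 by 1. This selection by symbol was made with earlier results known and the probesets share sequence, so they are not 15 separate measurements.

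The probeset that passed (1451965_at) is annotated to several kappa variable genes and has no single name. It was chosen after its value was seen. It read 4.88, 5.51 and 6.10 in controls and 2.66, 3.30 and 4.42 in deficient tumours. All 7 deficient arrays lay below the lowest control. It was above 4 in 7 control and 1 deficient arrays, so it entered the fit through the group where it is high, and its size is measured against readings at the background. The means were 5.43 ± 0.49 and 3.39 ± 0.52 (SD, n = 7 each), with a difference of -2.04 (SE 0.25, limma adjusted p = 0.0132, or 0.105 without the filter). It passed in 16 of 21 alternatives, with limma adjusted p-values of 0.00133 to 0.296 over them. The stricter filter, above 5 in at least 7 arrays, left this probeset out, so that run is not among the 21. It did not pass without deficient 2 (0.0534), without deficient 4 (0.0537), with every probeset kept, with the replicate number as a block (0.148) or with a random block for the leading number (0.296, difference -2.11).

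Among light chain probesets with a single gene, none passed. The brightest, of the kappa locus Igk (1452557_a_at), read 12.96 to 13.61 in the control group against 11.80 to 13.30, and differed by -0.79 (SE 0.22, limma adjusted p = 0.153). Its dimmer probeset (1425738_at) differed by -2.66 (SE 0.66, adjusted p = 0.132), and 3 of its 7 deficient readings were under 4. The lambda variable gene Iglv1 read 8.34 ± 0.77 and 6.16 ± 1.82 (SD, n = 7 each), with a difference of -2.19 (SE 0.68, limma adjusted p = 0.177). The kappa variable gene Igkv8-30 differed by -0.65 (SE 0.25, adjusted p = 0.254). In each of these the groups overlapped.

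**Figure D3:**
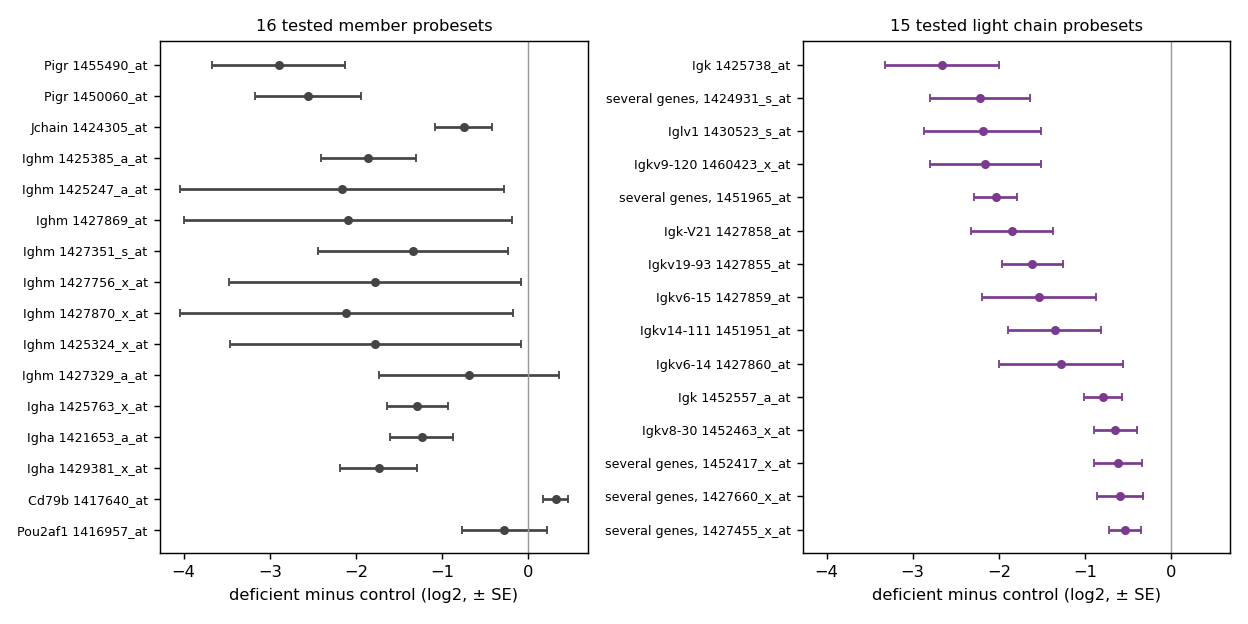
Differences between deficient and control tumours (log2, horizontal axis, bars ± SE) for the 16 tested member probesets (left) and the 15 other tested immunoglobulin probesets (right). All light chain points lie below 0, and on the left Cd79b alone lies above it.

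Of the B cell receptor subunits, Cd79b alone was measured above the background on all arrays. Cd79b, which encodes the beta signalling subunit, read 7.36, 7.87 and 8.01 in controls and 7.80, 7.92 and 8.54 in deficient tumours. The groups overlapped, and 0 of 7 deficient arrays lay below the control mean. The means were 7.76 ± 0.24 and 8.08 ± 0.29 (SD, n = 7 each), a difference of 0.32 (SE 0.15). Over the 14 arrays Cd79b was lower where Pigr 1455490_at was higher (r = -0.765, and -0.642 with each group's mean taken off).

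Cd79a, which encodes the alpha subunit, was above 4 in 2 control and 3 deficient arrays and was not tested. Its means were 3.69 ± 0.63 and 3.97 ± 1.11 (SD, n = 7 each), with most readings at the background, and deficient 1 and 3 held its highest readings. Pou2af1 encodes OCA-B, the coactivator of immunoglobulin transcription in B-lineage cells. It read 6.02 ± 0.69 in controls and 5.74 ± 1.25 in deficient tumours, with a difference of -0.28 (SE 0.49) and overlapping groups. That difference was -0.57 without deficient 1 and -0.05 without deficient 7, and 1 array moved it by over 1.5 times in 9 of 14 cases. Over the 14 arrays Pou2af1 correlated with Jchain at r = 0.664 and with Igha at 0.261 to 0.264. The order was the reverse among the 7 controls (0.178 and 0.857 to 0.901) and the same among the 7 deficient arrays (0.793 and 0.187 to 0.211), and no difference between them was tested.

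**Figure D4:**
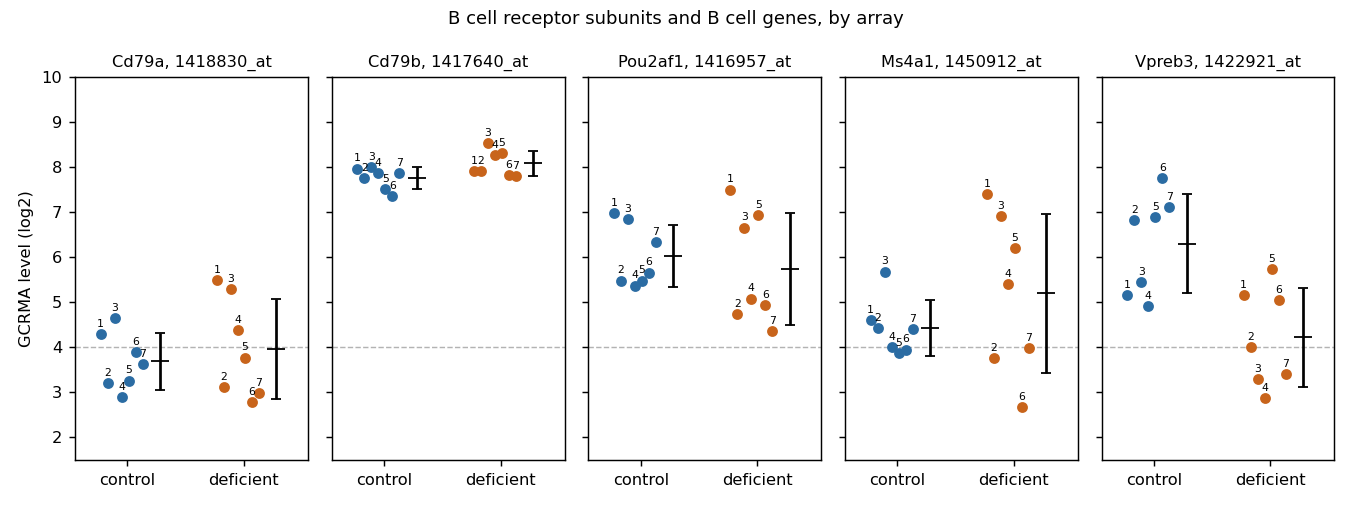
GCRMA levels (log2, vertical axis) of Cd79a, Cd79b, Pou2af1 and the B cell genes Ms4a1 and Vpreb3 on 7 control (blue) and 7 deficient (orange) arrays, with replicate numbers, mean ± SD in black and a dashed line at 4. The groups overlap for all 5 genes, and deficient 1 and 3 hold the highest readings of Cd79a and Ms4a1.

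Among 10 tested genes of the B cell receptor and B cell identity list that are not members, 6 were lower and 4 higher in deficient tumours, with a median of -0.11 against 0.00 over 7771 genes. None passed, and 1 had an unadjusted p under 0.05. That gene was Vpreb3, at 6.30 ± 1.10 and 4.22 ± 1.10 (-2.08, SE 0.54, limma adjusted p = 0.134). On deficient arrays 3 of its 7 readings were under 4. The CD20 gene Ms4a1, a defining B cell marker, read 3.87 to 5.68 in controls and 2.68 to 7.41 in deficient tumours (0.78, SE 0.65, adjusted p = 0.621). Leaving out deficient 1 gave 0.41, leaving out deficient 3 gave 0.49, and leaving out deficient 6 gave 1.20. Cd72, an inhibitory coreceptor gene, differed by 0.39 (SE 0.21, adjusted p = 0.401, and 0.25 without control 6), and Cd24a, the brightest member, by 0.00 (SE 0.12). The defining marker Pax5 stayed under 4 in every array.

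The plasma cell and antibody secretion list divided evenly, with 9 of 17 tested genes lower and 8 higher (median -0.01, 0 called). Herpud1, which acts in the disposal of misfolded proteins from the endoplasmic reticulum, read 12.11 ± 0.21 and 11.34 ± 0.46 (-0.78, SE 0.19, limma adjusted p = 0.131), and without deficient 6 it passed (-0.94, adjusted p = 0.0113). Creld2, an endoplasmic reticulum stress gene, differed by -0.56 (SE 0.21, adjusted p = 0.253). Ell2, an elongation factor gene that favours secreted over membrane heavy chain mRNA, differed by 0.35 (SE 0.12, adjusted p = 0.217). Sdc1, a plasma cell marker that epithelium also expresses, was at 12.67 to 13.09 in controls and 12.76 to 13.13 in deficient tumours (0.01, SE 0.09). Among the other defining plasma cell markers, Tnfrsf17 was at the floor in all arrays and Prdm1 was above 4 in 0 control and 3 deficient arrays.

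Genes of B cell recruitment and IgA switching read lower in 7 of 7 tested cases, with a median of -0.47 and 0 called, while 11 genes of the list were left out by the filter. The chemokine gene Cxcl12, which attracts and retains plasma cells, read 8.43 ± 0.40 and 7.35 ± 1.12 (-1.08, SE 0.41, limma adjusted p = 0.252), and without deficient 3 the difference was -0.68. Tnfsf13b, which encodes the B cell survival factor BAFF, differed by -0.91 (SE 0.38, adjusted p = 0.288). The gut-homing integrin gene Itgb7 differed by -0.47 (SE 0.27, adjusted p = 0.437), and Cxcr4, the receptor gene for CXCL12, by -0.08 (SE 0.31). Without a filter the median of this list was -0.035.

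The rest of the epithelial transport machinery was divided. Of 14 tested genes 5 were lower and 9 higher, with a median of 0.14 and 0 called. Fcgrt, which encodes the neonatal Fc receptor that carries IgG across cells, read 9.16 ± 0.26 and 8.61 ± 0.25 (-0.56, SE 0.14, limma adjusted p = 0.132). Myo5b, a motor gene of the apical recycling endosome, differed by -0.43 (SE 0.20, adjusted p = 0.337), and the retromer gene Vps35, which acts in receptor sorting, by 0.26 (SE 0.10, adjusted p = 0.279). B2m, whose product is the light chain of the neonatal Fc receptor, differed by -0.03 (SE 0.14).

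Among 19 tested regulators of Pigr transcription, cytokine receptors and NF-kB and interferon pathway genes, 12 were lower and 7 higher (median -0.06, 0 called). The interleukin 17 receptor gene Il17ra differed by -0.59 (SE 0.23, limma adjusted p = 0.269), the interferon gamma receptor gene Ifngr1 by -0.28 (SE 0.13, adjusted p = 0.337) and the toll-like receptor gene Tlr4 by 0.51 (SE 0.21, adjusted p = 0.292). Nfkbia, an NF-kB inhibitor gene and the brightest of the list, differed by 0.05 (SE 0.12). Of 9 tested Fc and immunoglobulin receptor genes 8 were lower (median -0.47, 0 called). They included Fcgr3, a low-affinity IgG receptor gene (-0.75, SE 0.26, adjusted p = 0.217), and Fcer1g, the shared signalling chain gene (-0.47, SE 0.19, adjusted p = 0.282), beside Lgals3, a galectin gene, at -0.13 (SE 0.16, and -0.24 to -0.06 with single arrays left out).

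The genes whose pattern was most like Pigr 1455490_at, by r of deviations from the group means over the 14 arrays, were the ceruloplasmin gene Cp (0.928), the zinc finger transcription factor gene Zbtb16 (0.915), Crybg3 (0.903), the sulfotransferase gene Sult1a1 (0.895) and Fam126a (0.888). Those most like Jchain were the ubiquitin ligase gene Trim37 (0.913), the kappa genes Igkv6-14 (0.908) and Igk (0.905), the ubiquitin ligase gene Rffl (0.897) and the adaptor protein gene Ywhae (0.891). These values describe libraries that the genes share, and they are the highest r among all tested probesets with 1 gene symbol, so they were picked for being high. Deficient 3, where Pigr 1455490_at was at the background (2.31), was also far below its group for Sult1a1 (5.68, next 7.70) and Fam126a (5.91, next 7.61). The r of those genes rests in part on that array. Pigr 1455490_at and Igha correlated at 0.858 to 0.865 over the 14 arrays, and at 0.717 to 0.746 with each group's mean taken off. For the other Pigr probeset the values were 0.674 to 0.694 and 0.329 to 0.355. For 1455490_at that relation was not the same in each group, at 0.891 to 0.908 among the 7 deficient and -0.593 to -0.527 among the 7 control arrays, where Igha spans little, and the difference was not tested.

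Markers of other cell types moved with the Pigr level. All 7 tested ciliated cell genes and 13 of 16 secretory airway genes read lower in deficient tumours (medians -2.32 and -1.29, 0 called in each). These counts and medians depend in part on the filter and the floor. Spag6l and Ltf were above 4 in 7 control and 2 deficient arrays, so they entered the fit through the group where they are high. Lrrc23 was above 4 in 7 control and 4 deficient arrays. Of all 14 arrays, Tekt1 and Mlf1 were above 4 in 8 and Muc5ac in 7. The mean level of the ciliated list per array lay between 6.11 and 9.49 in the control group, and its deficient median was 5.04, below the control median of 7.87. That of the secretory list was 10.14 to 12.11 against 9.25 to 10.34. The ciliated marker Foxj1 was above 4 in 3 control and 0 deficient arrays. Among the ciliated genes Tppp3 differed by -2.32 (SE 0.57, limma adjusted p = 0.132), Spag6l by -3.35 (SE 0.84, adjusted p = 0.132), Lrrc23 by -3.49 (SE 0.99, adjusted p = 0.155) and the bright tubulin gene Tubb4b by -0.35 (SE 0.16). Of the secretory genes, lactotransferrin (Ltf) had the widest gap (-6.51, SE 1.16, limma adjusted p = 0.0787). Under 4 were 5 of its 7 deficient readings, and it passed in 4 of 14 fits with 1 array left out. Those were the fits without control 1, control 3, control 4 or deficient 6 (adjusted p = 0.0256 to 0.0483). Haptoglobin (Hp) differed by -0.66 (SE 0.14, limma adjusted p = 0.116, and 0.0338 without deficient 6), Scgb3a1 by -3.25 (SE 0.73, adjusted p = 0.116, and 0.0343 without control 1) and Scgb1a1 by 0.06 (SE 0.11). Pigr 1455490_at followed the ciliated list at r = 0.806 and the secretory list at 0.804 over the 14 arrays, and at 0.613 and 0.553 with each group's mean taken off. For Igha (1425763_x_at) the values were 0.706 and 0.694, and 0.421 and 0.284. With each group's mean taken off, Pigr 1455490_at also correlated at 0.578 with the T cell list and 0.562 with the alveolar type 2 list. With the general epithelial list it was at -0.589, and the remaining lists were weaker for Pigr. Igha stood at 0.365, 0.694 and -0.639 with those 3 lists. The relation within groups was therefore not particular to the airway lists, but deficient 3 weighs in these values. That array was the lowest of its group for Pigr 1455490_at (2.31, at the background) and Igha 1425763_x_at (10.65). Its alveolar type 2 level was 12.26, where the other deficient arrays were at 12.68 to 12.85. No r without deficient 3 is given. The part of these cell types in the Pigr and Igha differences was not tested.

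**Figure D5:**
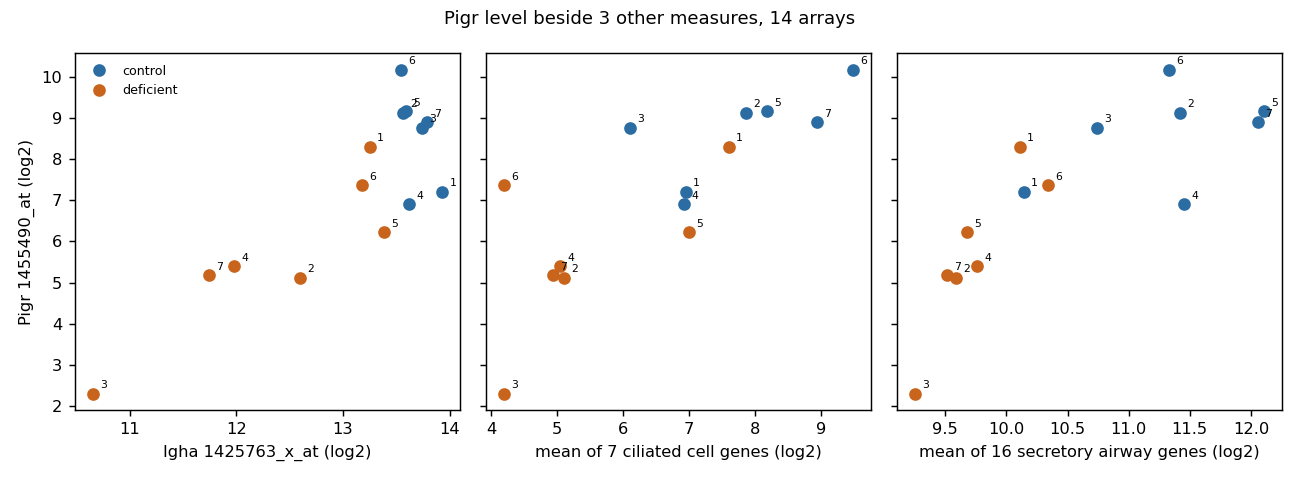
Pigr 1455490_at (log2, vertical axis) against Igha 1425763_x_at, the mean of 7 ciliated cell genes and the mean of 16 secretory airway genes (log2, horizontal axes), 1 point per array with its replicate number, control in blue and deficient in orange. Deficient 3 is lowest on the vertical axis in each panel, and deficient 6 has a Pigr level of 7.37 at a ciliated level as low as that of deficient 3.

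Leukocyte markers were measured beside the antibody genes. Of 16 tested general leukocyte genes 14 read lower (median -0.35, 0 called), with median levels of 10.44 and 10.17 and highest levels of 10.76 and 10.43. Laptm5, a lysosomal protein gene of leukocytes, differed by -0.56 (SE 0.20), Cd48 by -0.83 (SE 0.30), the signalling adaptor gene Tyrobp by -0.51 (SE 0.20) and the invariant chain gene Cd74 by -0.09 (SE 0.07). All 5 tested T cell genes read lower (median -0.65, 0 called, levels of 5.52 to 7.50 and 5.06 to 6.27), while the defining T cell marker Cd8a was under 4 in every array. The surface receptor gene Cd2 differed by -1.30 (SE 0.60) and the T cell receptor subunit genes Cd3d and Cd3g by -0.65 (SE 0.30) and -0.84 (SE 0.40). Cd3e, another defining T cell marker and above 4 on all 14 arrays, differed by -0.29 (SE 0.20). The general epithelial list (14 tested, 8 lower, median -0.02) and the alveolar type 2 list (15 tested, 3 lower, median 0.04) held values near 0. Mean levels were 10.32 to 10.79 and 10.11 to 10.74 for the first, and 12.52 to 12.68 and 12.26 to 12.85 for the second. Of the defining alveolar type 2 genes, Sftpc was at 13.74 to 13.92 in controls and 13.77 to 14.17 in deficient tumours. Sftpb was at 13.34 to 13.61 and 13.48 to 13.61. In the first, Esrp1 differed by 0.27 (SE 0.09), Elf3 by -0.29 (SE 0.21), and the keratin genes Krt8 and Krt18 by 0.18 (SE 0.16) and 0.14 (SE 0.21). In the second, Egfl6 differed by 0.45 (SE 0.21), Cxcl15 by 0.21 (SE 0.10), Slc34a2 by 0.16 (SE 0.11) and Sftpa1 by -0.04 (SE 0.10). The differences of Krt8, Krt18 and Slc34a2 moved by over 1.5 times with single arrays left out. The part of these cell types in the antibody gene differences was not tested.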

How the data were processed

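Levels were measured in total RNA of tumours on 14 Affymetrix arrays. The authors deposited log2 levels per probeset, and the submitters' processing notes name GCRMA, of unstated version. GCRMA subtracts a sequence-based background, normalises between arrays and summarises probes, so values pile up at a floor and differences against it depend on that floor. No scanner files were used, and the number of arrays limits the precision. Probesets were named from the platform annotation, which can be old: 20380 had 1 symbol, 691 several and 1555 none. Suffixes _x_at, _s_at and _a_at mark probesets whose probes can match several transcripts.

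Groups came from the sample titles, and leading numbers were split by hand from the array descriptions. limma 3.58.1 in R 4.3.3 (lmFit and eBayes, two-sided, Benjamini-Hochberg over 12701 probesets above 4 in at least 7 of 14 arrays, threshold 0.05) compared deficient with control, and the script was tested on simulated data. The filter left out 9925 probesets. Differences are deficient minus control, SE is that of the fit, and gene lists use each gene's brightest probeset. Of 273 list entries, 51 had no probeset and 4 matched through a synonym. Named were all members, Epas1, the 3 genes with the smallest p and the brightest gene of each list, defining cell type markers, and the 5 genes most like Pigr and Jchain. Members and lists were chosen with earlier results of these data known. Alternatives changed the filter, normalisation, variance model, array weights, blocks and arrays used. Promoters were read with Python 3.11.15 from RefSeq windows.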

Additional observations from a re-analysis of the deposited data

Results flagged for a closer look

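In 154 groups of 7 arrays examined, 13 held an array whose gap to the nearest other was a large part of the group's range, and chance gives this in about 1 in 20 groups. Among the members these were 3 Ighm readings: deficient 2 at 8.40 in 1425385_a_at (next 10.24), and deficient 3 at 12.80 in 1427351_s_at (next 7.73) and at 10.26 in 1427329_a_at (next 5.01). Deficient 3 was also the lowest of its group for Cxcl12 (4.94), Sftpa1 (13.56), Sult1a1 (5.68) and Fam126a (5.91). Control 4 was lowest for the T cell gene Cd2 (6.07) and for Sftpa1 (13.74), and highest for the keratin gene Krt8 (12.74). Control 3 was highest for Ms4a1 (5.68) and lowest for Trim37 (6.85), and deficient 7 was highest for Sdc1 (13.13).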

How the results depend on the processing

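The differences of the 16 tested member probesets kept their sign in every alternative run. This is no support for them, since the members were chosen on this difference. The alternatives for the filter, the variance model and the replicate block also leave a difference as it is. The count of member calls was 0 in the fit reported, 7 with array weights and 0 to 2 with single arrays left out (2 without control 4). Over the whole table the 5 calls became 1900 with array weights, 9 with a trended robust variance, 0 with a random block for the leading number, 0 without a filter, and 31 without deficient 3 and 6 (chosen after the data were seen). Single arrays left out gave 0 to 85 (85 without control 4, 30 without deficient 6, 13 without deficient 7, 11 without deficient 1, 1 without control 2, 5, 6 or 7, and 0 without deficient 2 or 4). With the replicate block 2 passed over the table. Same-numbered arrays deviated from their group means with r from -0.226 to 0.223, and 0 arrays matched best with their own number. No pairing by replicate number was seen, but correlations over whole arrays cannot exclude a weak one.

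Calls among the other genes of the lists were 0, and 55 with array weights, 3 without deficient 3 and 6, and 0 to 4 with single arrays left out (2 without control 1, 1 without control 3, 2 without control 4, 4 without deficient 6). Without a filter the list medians were -0.035 for recruitment and IgA switching and -0.065 for T cells. That of secretory airway genes was -0.81 without deficient 3 and 6, and -1.58 to -0.84 with single arrays left out (-0.84 without deficient 3). Over all alternatives the median of the plasma cell list ran from -0.07 to 0.05 and that of the general epithelial list from -0.06 to 0.08. The cause was not tested. Readings under 4 are bounds, which limits Cd79a, 3 Ighm probesets, and the low arrays of Pigr, Ighm, Vpreb3, Igk 1425738_at, Iglv1, Ltf, other airway genes and the kappa probeset 1451965_at.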
